A study of Macaca mulatta with 2 samples.

Results

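Testosterone and estradiol are made from cholesterol in a chain of enzyme steps, and 10 genes of that chain were followed here: STAR, CYP11A1, CYP17A1, HSD3B1, HSD3B2, HSD17B1, HSD17B3, CYP19A1, SRD5A1 and the LH receptor gene LHCGR. They were found on the arrays by their gene symbol, all probes included. All 10 symbols were present, among 30982 distinct gene names, with 16 of the 41000 probes. Of the 16 probes 12, from 8 genes, gave a signal well above background in the pubertal cultures of both arrays or in the infant cultures of both. These 12 are called measured below. The 4 others were both probes of CYP19A1, the probe of LHCGR and 1 of 5 probes named HSD17B1. The members and the other gene lists were chosen with earlier results of these data known.

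The samples were primary cultures of Sertoli cells, the nurse cells of the seminiferous tubule, from testes of rhesus macaques (Macaca mulatta). Infant cultures came from males under 3 months of age. Pubertal cultures came from juvenile males, given as 18 to 22 months old, brought into puberty over 4 to 5 weeks by GnRH pulses, each lasting 2 min at a rate of 0.15 µg/min and repeated at intervals of 3 h. All 4 cultures, infant and pubertal alike, had 100 nM testosterone and 5 ng/ml FSH in the medium for 24 h. The hormones were thus common to both ages, and cultures without them are not analysed here. Testosterone, the product of the pathway, was itself added. Each of 2 two-colour arrays compared 1 pubertal with 1 infant culture. On array 1 the pubertal RNA was in the red dye Cy5 and the infant RNA in the green dye Cy3, and on array 2 the dyes were swapped. The labels call the arrays biological replicates and give each culture a number of its own, and they do not say how many animals made a culture. The design asks how the steroidogenic genes differ between infant and pubertal Sertoli cells under the same hormones.

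STAR carries cholesterol into the mitochondrion, where CYP11A1 cleaves its side chain to give pregnenolone. HSD3B1 and HSD3B2 are close relatives that turn pregnenolone-type steroids into progesterone-type steroids, and CYP17A1 makes the androgen precursors from either. HSD17B3 makes testosterone, SRD5A1 reduces it to dihydrotestosterone, CYP19A1 (aromatase) makes estrogens and HSD17B1 makes estradiol from estrone. In the testis most of this chain is known from Leydig cells, the interstitial cells that carry the LH receptor. Sertoli cells are known for FSH-driven aromatase, above all when immature.

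The probes are oligonucleotides of 60 bases from a human array design, so macaque RNA was read with human sequence. Coordinates below are on the human build hg17, as given in the files. Shown here are the probes of CYP11A1 (chr15:72418071-72418130, minus strand) and HSD17B3 (chr9:96082653-96082712, minus strand). For HSD17B1 the probe A_24_P56833 is shown, whose 60 bases span 235 bases of the genome (chr17:37959140-37959374, plus strand), so that it bridges a gap in the genomic sequence. Of the CYP17A1 probe (chr10:104580292-104580351, minus strand) the first 30 bases are given. These 4 belong to members whose values are described below, and no part of them is set in capitals because no base is singled out.
CYP11A1 A_23_P129169: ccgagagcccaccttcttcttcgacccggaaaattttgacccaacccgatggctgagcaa
HSD17B3 A_23_P43415: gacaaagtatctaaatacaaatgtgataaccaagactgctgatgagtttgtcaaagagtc
HSD17B1 A_24_P56833: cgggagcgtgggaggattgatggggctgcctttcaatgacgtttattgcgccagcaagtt
CYP17A1 A_24_P52597, first 30 bases: caacccactctgccttctttttcagcttgt

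Of the 10 symbols 9 matched an entry of the macaque gene table used here, and HSD3B1 did not. Since the HSD3B genes are close relatives, their 3 probes can bind each other's transcripts and are not separate measurements of separate genes. The 5 probes named HSD17B1 fell into 2 kinds. A_23_P15542 and A_24_P56833 were drawn from the HSD17B1 mRNA on the plus strand. A_23_P387374, A_24_P230502 and A_32_P80897 were drawn from a cDNA clone (BC033110) on the minus strand, the nearest of them ending 162 bases before the first plus-strand probe. They thus read RNA from the opposite strand under the same symbol and are given separately. The GC content of the 16 probes ran from 35.0% to 70.0%, against a median of 41.7% over all probes, and the 70.0% belonged to the minus-strand probe A_24_P230502.

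On each array 43376 spots were read, and between 60.9% and 74.8% of them were well above background in a given channel. Saturated spots lay almost all in Cy5, 586 on array 1 and 428 on array 2. Among the measured probes the pubertal spot on array 1 was saturated for STAR, CYP11A1, HSD3B2 and the HSD3B1 probe A_24_P350397. For these 4 the array 1 ratio and the mean of the arrays are lower bounds, given the dye normalization used. That normalization, by loess, was itself fitted with saturated spots included. The SE, interval and p of these 4 below take the saturated value as if it were measured. Across the 25768 measured probes of the whole array, which are not independent replicates, the log2 ratios of the arrays had a Pearson r of -0.07, and by rank a Spearman rho of -0.11. The dye orientation stated in the labels was kept. The cultures expressed Sertoli cell genes: of 16 Sertoli markers 12 were measured, among them SOX9, WT1, AMH and INHA, while FSHR was well above background in 1 of 2 pubertal cultures and GATA1, SHBG, RHOX5 and ABP1, a symbol that also stands for an amine oxidase gene, were not measured.

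On both arrays 4 of the 12 measured probes read lower for pubertal RNA and 3 read higher, while 5 had opposite signs. The 3 include the minus-strand HSD17B1 probe A_23_P387374, at 0.14 and 0.0002, and the 5 include the minus-strand probe A_24_P230502. Among the 5, HSD3B2 and the HSD3B1 probe A_24_P350397 were negative on array 1 only as lower bounds. Their true sign on that array is not known. Over all measured probes 21.9% were lower, 23.4% higher and 54.7% opposite. Set side by side across the arrays, both pubertal levels were above both infant levels for 2 member probes and below them for 2, against 15.6% and 14.1% of all measured probes. The median log2 ratio of the 12 was 0.07 on array 1 and -0.28 on array 2, against 0.02 and -0.01 over all measured probes. By limma's test, Benjamini-Hochberg adjusted over the 25768 probes, 0 members passed and 0 probes of the array did (0%). At an unadjusted p under 0.05 limma gave 2 members, CYP17A1 and an HSD3B1 probe, and 1043 probes of the array (4.05%). Of the 2 members CYP17A1 was the lower one, where 1.79% of probes were lower with such a p. All differences below are therefore descriptions of these 2 arrays. A difference in bulk RNA can come from fewer cells of a type or from less RNA per cell, which cannot be told apart here.

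CYP17A1, the enzyme of androgen precursor synthesis, was lower in pubertal than in infant cells on both arrays. Its normalized log2 level, a background-corrected intensity with 50 added, was 11.75 in the pubertal and 13.87 in the infant culture of array 1, and 9.68 and 11.13 in those of array 2. Each pubertal culture was below the infant culture of its own array, but the pubertal culture of array 1 was above the infant culture of array 2, so the groups overlap when the arrays are set side by side. The log2 ratio of pubertal over infant was -2.12 (4.34-fold lower) and -1.45 (2.74-fold lower). Their mean was -1.79 ± 0.28 (SE moderated by limma, n = 2 arrays), with a 95% interval of -2.49 to -1.08. CYP17A1 was the 1 member at least 2-fold lower on both arrays, where 0.299% of all measured probes were, and no member was at least 2-fold higher on both (0.303% of probes). Its limma p ranked 24th of 25768, with an unadjusted p of 0.00109 and an adjusted p of 0.838. Over 9 other settings with a test the adjusted p lay between 0.108 and 1.

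The size of the CYP17A1 difference on array 1 rested on the dye normalization. The spot read 7011 for pubertal RNA in Cy5 and 7126 for infant RNA in Cy3 before normalization, nearly equal raw intensities. With median centring, in place of loess, the array 1 ratio was -0.96 and the array 2 ratio -2.05, which keeps the direction but ends the 2-fold rule on array 1. After median centring, which was done over all probes, the measured probes had medians of 0.57 and -0.37 on arrays 1 and 2, where loess left 0.02 and -0.01. In the authors' deposited table CYP17A1 stands at -2.30 and -1.50.

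**Figure D1:**
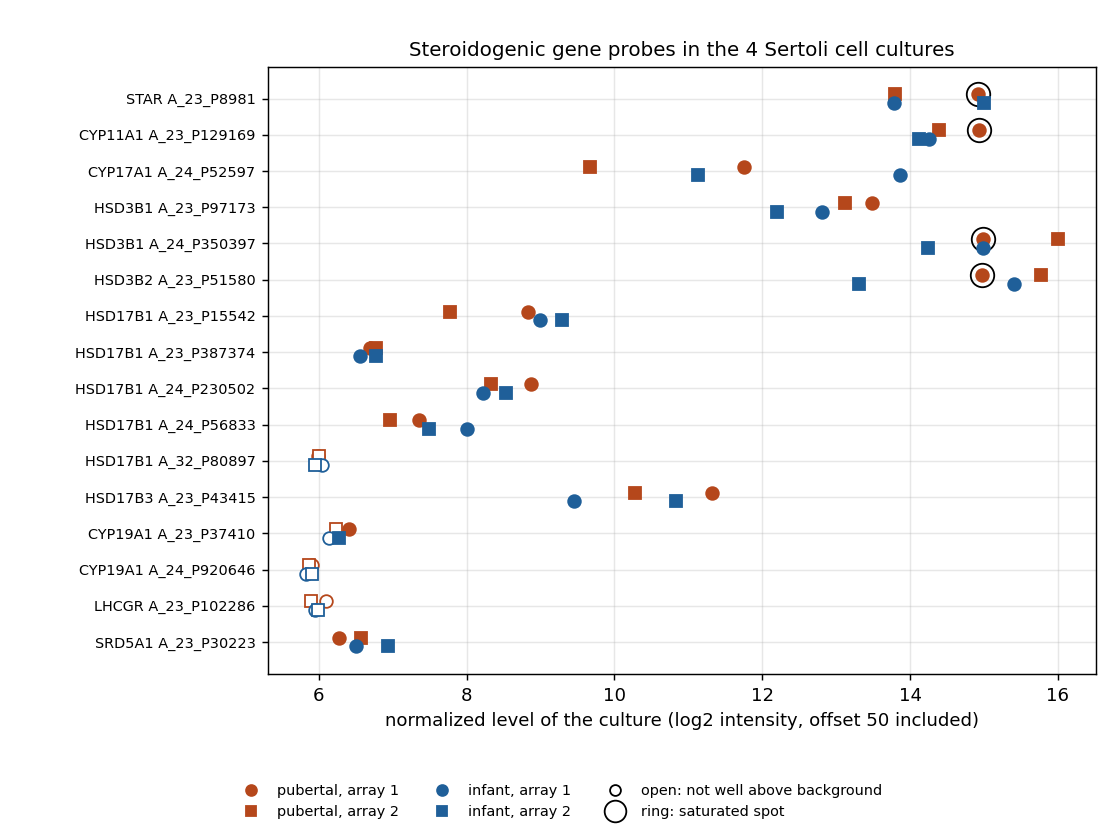
Normalized log2 level (x axis, intensity with the offset of 50 included) of each member probe (rows) in the 4 cultures: orange, pubertal; blue, infant; circles, array 1; squares, array 2. Open symbols are not well above background and rings mark saturated spots; CYP17A1 shows both pubertal symbols left of the infant symbol of the same array, and LHCGR is open in all 4 cultures. Levels can be compared within a row, not between rows.

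The first steps of the chain were bright in all 4 cultures. STAR had log2 levels of 14.91 in the pubertal and 13.78 in the infant culture of array 1, and of 13.80 and 14.99 on array 2. The culture labelled with Cy5 was the higher on each array, pubertal on array 1 and infant on array 2. Its log2 ratios of pubertal over infant were 1.14, a lower bound, and -1.20, and their mean was -0.03 ± 0.56 (moderated SE, n = 2), which turned to 0.18 with median centring. STAR was the 1 member with opposite signs and at least 2-fold ratios on both arrays, as were 0.683% of measured probes. In the direction Cy5 over Cy3 it was thus at least 2-fold higher on both arrays, where 0.21% of probes were higher and 0.473% lower. Dye and the difference between the animal pairs cannot be told apart for it.

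CYP11A1, the side-chain cleavage enzyme, was at log2 levels of 14.94 and 14.39 in the pubertal and 14.26 and 14.12 in the infant cultures of arrays 1 and 2. Both pubertal cultures stood above both infant cultures. The log2 ratio was 0.67, a lower bound, on array 1 and 0.27 on array 2. The fitted mean, a lower bound, was 0.47 ± 0.26 (95% interval -0.17 to 1.12, limma adjusted p = 1). With median centring the array 2 ratio was -0.57, so the direction on that array depends on the normalization.

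The HSD3B probes were also bright. The HSD3B1 probe A_23_P97173 (chr1:119769429-119769488), with no saturated spot, had log2 levels of 13.48 and 13.13 in the pubertal and 12.80 and 12.20 in the infant cultures. Both pubertal values were above both infant values, and this probe was higher in pubertal cells on both arrays under loess, median centring, an offset of 0 and the scanner's own signals. Its log2 ratios were 0.68 and 0.92, or 1.60-fold and 1.90-fold, with a mean of 0.80 ± 0.25 (95% interval 0.18 to 1.42, unadjusted p = 0.0202, limma adjusted p = 1). With median centring the ratios were 1.86 on array 1 and 0.19 on array 2, so their size depends on the normalization.

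The second HSD3B1 probe, A_24_P350397 (chr1:119769293-119769353), had log2 levels of 14.98 (saturated) and 16.002 in the pubertal and 14.98 and 14.25 in the infant cultures. Its ratio was at least -0.003 on array 1 and was 1.76 on array 2. HSD3B2 had levels of 14.97 (saturated) and 15.77 in the pubertal and 15.41 and 13.32 in the infant cultures, with ratios of at least -0.44 on array 1 and 2.46, or 5.48-fold higher, on array 2. The infant culture of array 2 was the lowest of the 4 for all 3 HSD3B probes. The 2 saturated probes had adjusted p-values of 1 in limma and wide intervals, -0.26 to 2.01 for the HSD3B1 probe and -0.68 to 2.70 for HSD3B2. Median centring gave ratios above 0 on both arrays for all 3 probes. They were 1.31 and 0.86 for A_24_P350397, 0.89 and 1.60 for HSD3B2, and 1.86 and 0.19 for A_23_P97173. After that centring the median measured probe also read above 0 on array 1, with 0.57. A positive sign on that array is thus not particular to these probes, while on array 2 the median probe read -0.37. The authors' deposited table lists 3 of the 4 saturated member probes, and the array 1 cell is empty for all 3. It gives 1.68 for A_24_P350397 and 2.45 for HSD3B2 on array 2.

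**Figure D2:**
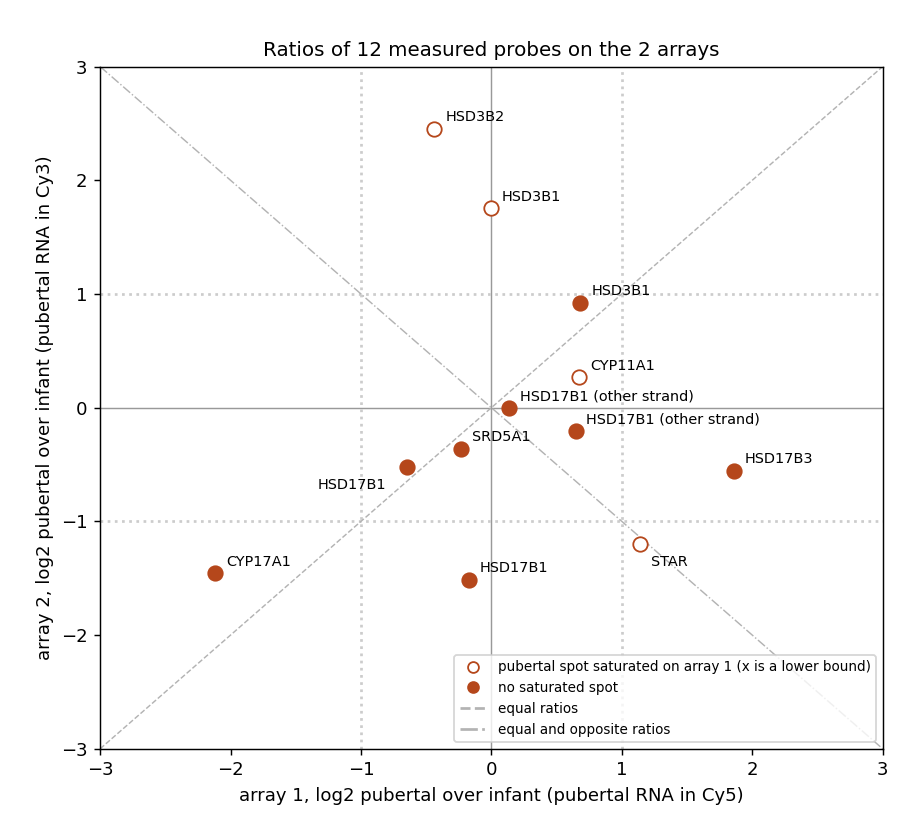
Log2 ratio of pubertal over infant for the 12 measured probes on array 1 (x axis) against array 2 (y axis), 1 point a probe; open points have a saturated pubertal spot on array 1, dotted lines mark 2-fold. CYP17A1 (-2.12 and -1.45) is the 1 point beyond 2-fold on both axes in the same direction, STAR (1.14 and -1.20) lies near the line of equal and opposite ratios, and the 3 HSD3B points lie above 0 on array 2.

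HSD17B3, the enzyme of the last step to testosterone, went opposite ways on the 2 arrays. Its log2 levels were 11.32 and 10.28 in the pubertal and 9.46 and 10.83 in the infant cultures, so the infant culture of array 1 was lowest and the pubertal culture of array 1 highest. The log2 ratios were 1.86 (3.63-fold higher) on array 1 and -0.55 on array 2, and the mean was 0.65 ± 0.57 with a 95% interval of -0.80 to 2.10. As for STAR, the Cy5-labelled culture was the higher on each array. The authors' deposited table gives 1.89 and -0.52.

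HSD17B1, the enzyme that makes estradiol, was lower in pubertal cells on both arrays with both plus-strand probes. A_23_P15542 (chr17:37960565-37960624) had log2 levels of 8.83 and 7.77 in the pubertal and 8.998 and 9.28 in the infant cultures, and A_24_P56833 had 7.36 and 6.96 against 8.002 and 7.49. For each of the probes both pubertal values were below both infant values. The ratios were -0.17 and -1.51 (mean -0.84 ± 0.38) for the first and -0.64 and -0.52 (mean -0.58 ± 0.24) for the second, with 95% intervals of -1.79 to 0.11 and -1.19 to 0.03 and limma adjusted p-values of 1. With median centring A_23_P15542 was at 0.49 on array 1, so its direction there depends on the normalization, while A_24_P56833 kept its sign at -0.29 and -0.70. The minus-strand probes did not share this direction. A_24_P230502 was at 0.65 and -0.21 and A_23_P387374 at 0.14 and 0.0002, the mean of the last turning to -0.015 with median centring. The third minus-strand probe was not well above background in any culture.

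SRD5A1, which makes dihydrotestosterone, was dim but well above background in all 4 cultures. Raw mean intensities were 89.0 and 78.5 in the pubertal and 77.6 and 133.3 in the infant cultures, over local backgrounds of 47.0 to 51.0. Its log2 levels of 6.28 and 6.57 in the pubertal and 6.51 and 6.93 in the infant cultures overlap between the groups. The ratios were -0.23 and -0.36, a mean of -0.30 ± 0.24 (95% interval -0.91 to 0.31, limma adjusted p = 1). The ratio was larger without the offset of 50. With the scanner's own signals the ratios were -1.06 and -1.01, with an offset of 0 they were -0.61 and -0.76, and the authors' deposited table has -1.11 and -1.01. SRD5A1 was lower in pubertal cells in each of these, and the size of the difference changed with the processing, which also gave a mean of -0.48 with median centring.

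LHCGR, the receptor through which LH drives Leydig cells, was not well above background in any of the 4 cultures. Its raw mean intensities were 61.1 and 59.5 in the pubertal and 59.1 and 61.6 in the infant cultures, over local backgrounds of 45.5 to 51.0. CYP19A1, the aromatase gene, was near that limit. Its probe A_23_P37410 read 91.2 and 69.7 in the pubertal and 61.1 and 74.1 in the infant cultures. It was well above background for the pubertal RNA of array 1 and the infant RNA of array 2, both labelled with Cy5, and for neither RNA in Cy3. The second CYP19A1 probe was not well above background in any culture. No fold is given for these 2 genes. How well the human probes match macaque RNA was not tested.

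**Figure D3:**
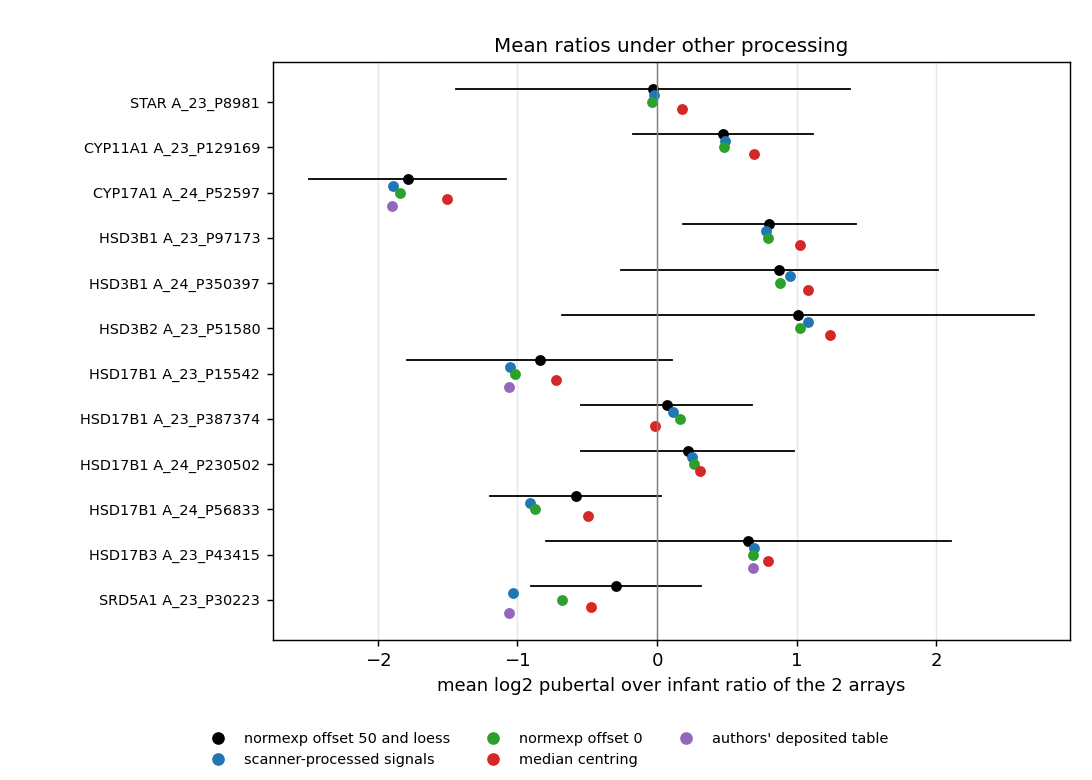
Mean log2 ratio of pubertal over infant of the 2 arrays (x axis) for each measured probe (rows) under the processing used here (black, with its 95% interval from limma) and under 4 other sources or settings (colours). CYP17A1 lies between -1.90 and -1.50 in all of them, SRD5A1 runs from -0.30 to -1.06, and STAR and the HSD17B1 probe A_23_P387374 change sign with median centring.

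Of the genes listed below, chosen for their place in or around the pathway or as cell type markers, 0 passed limma's adjusted threshold, so the counts are of ratios with the same sign on both arrays. Of 13 genes for cofactors and electron donors of the enzymes 13 were measured. Pubertal cells had 5 of them higher and 1 lower, where 23.5% of all measured genes were higher and 21.9% lower. With median centring 1 was higher and 2 lower. The list's median log2 ratios were 0.23 and 0.15 on the 2 arrays, against 0.05 and -0.03 over all 19470 measured genes. The cytochrome b5 gene CYB5B was at 0.46 and 0.90, and FDX1, the ferredoxin that hands electrons to CYP11A1, at 0.88 and 0.12. CYB5A, which aids the CYP17A1 lyase step, was at 0.26 and 0.50, and POR, the electron donor of CYP17A1 and CYP19A1, at 0.23 and -0.63. H6PD was the 1 gene lower on both, at -0.996 and -0.01 with its brightest probe, while its 2 other probes had means of -0.22 and 0.12.

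Of 31 other steroid-converting enzymes 20 were measured, 7 higher and 5 lower on both arrays, with medians of 0.11 and 0.05. Among the 7, HSD3B7 and STS were not well above background in the infant culture of array 1, and of the 17 enzymes well above background in all 4 cultures 5 were higher and 5 lower. With median centring the counts were 2 and 3. HSD17B12 was at 0.27 and 1.02 and the glucuronosyltransferase UGT2B17 at 0.28 and 0.49. The aldo-keto reductases AKR1C1 (-1.61 and -1.46) and AKR1C3 (-1.75 and -1.28), which reduce steroid ketones, were the 2 that were at least 2-fold lower on both arrays, as were 0.354% of measured genes. Their probes can bind transcripts of close relatives. Of 9 cholesterol carriers 8 were measured, 1 higher and 3 lower, with SCP2 at 0.29 and 0.58, the STAR relative STARD3 at -0.22 and -0.28 and OSBP at -0.16 and -0.15. With median centring 0 carriers were higher and 0 lower on both arrays.

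Among 29 transcription factors known to act on steroidogenic genes 27 were measured, 7 higher and 6 lower on both arrays. NR5A1, LHX9, NR2F2, TCF21, SOX9 and WT1 also stand in marker lists below. So do some genes of other pathway lists, FSHR and HSD11B1 among them, and the counts of the lists are therefore not separate. NR5A1 (SF-1), the nuclear receptor that switches on most genes of the chain, was at -0.35 and 0.17, a mean of -0.09 ± 0.27 (moderated SE, n = 2). NR0B1 (DAX-1), a nuclear receptor that represses NR5A1 targets, was at -2.01 and -1.54, a mean of -1.78 ± 0.26 with a limma adjusted p of 0.838. NR2F2, an orphan receptor of stromal and Leydig lineage cells, was at -1.60 and -1.06. On the higher side were WT1 (0.42 and 0.57) and SREBF1 (0.31 and 1.02, with a saturated spot on each array). Of 10 hormone receptors 7 were measured, 0 higher and 2 lower, GHR at -1.32 and -0.13 and FSHR at -0.24 and -0.17. FSHR was not well above background in the pubertal culture of array 2, and without it 1 of 6 was lower.

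Most markers of stroma and of germ cells kept 1 sign on both arrays. Most Leydig cell markers had opposite signs, as did 10635 of all 19470 measured genes, so this is not particular to them. Of 12 markers of stroma and fibroblasts 12 were measured and 10 were lower (7 with median centring), with medians of -1.44 and -0.77. By their brightest probe 4 were at least 2-fold lower on both arrays, as were 0.354% of measured genes. Among these 4, FBLN1 had means of -0.49 and -0.10 with its 2 other probes, and NR2F2 -1.1 with its other probe. The summed normalized intensity of the 12 markers was 31830 and 45710 in the pubertal and 80210 and 70230 in the infant cultures. Of 12 Leydig cell markers outside the 10 genes 8 were measured, 0 higher and 2 lower, PTGDS at -1.68 and -1.65 and DLK1 at -1.32 and -1.99. For the 6 others the signs differed between arrays 1 and 2, and the medians of the 8 were -0.09 and -0.27. The summed intensity of the 8, most of it from PTGDS and DLK1 in the infant cultures, was 6752 and 5525 in the pubertal and 14940 and 14640 in the infant cultures. INSL3, the peptide hormone of Leydig cells, was well above background in all 4 cultures, at 1.37 and -0.20 (a second probe had a mean of 0.03), while PRLR, CYP21A2, LHX9 and SULT1E1 were not measured. Of 14 germ cell markers 13 were measured and 12 were higher (10 with median centring). Of these SYCP3, MAGEA4, TEX11, KIT and SALL4 were not well above background in the infant culture of array 1 and entered through the pubertal cultures, where they are higher. Of the 8 well above background in all 4 cultures 7 were higher. At least 2-fold higher on both arrays were 3 (DAZL, STK31 and PRAME, named after their values were seen), where 0.344% of measured genes were. The summed intensities of the 13 were 5666 and 5735 in the pubertal and 3126 and 4893 in the infant cultures. UCHL1 gave the largest part of each sum and was the 1 germ cell marker with opposite signs, at 0.60 and -0.23. The part of these markers in the lower CYP17A1 signal was not tested.

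Of 12 measured Sertoli markers 6 were higher (4 with median centring, 5 with an offset of 0) and 1, FSHR, lower, with medians of 0.59 and 0.28. AMH counts among the 6 at 0.95 and 0.0007. At least 2-fold higher on both arrays were 2, where 0.344% of measured genes were. Of the 11 well above background in all 4 cultures 6 were higher and 0 lower. The summed intensities of the 12, in which INHA, INHBB and TF have a saturated spot on array 1, were 117400 and 99470 in the pubertal and 82650 and 79830 in the infant cultures. Of 8 smooth muscle markers 8 were measured, 4 higher (1 with median centring) and 2 lower, and of 8 macrophage markers 7 were measured, 3 higher and 1 lower (0 with median centring). Of the 6 macrophage markers well above background in all 4 cultures 2 were higher and 1 lower. Of 5 adrenal cortex markers 2 were measured, CYP11B1 at 0.30 and -0.17 and MRAP at 0.69 and -1.25. The adrenal genes MC2R, CYP11B2 and CYP21A2 were not measured.

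**Figure D4:**
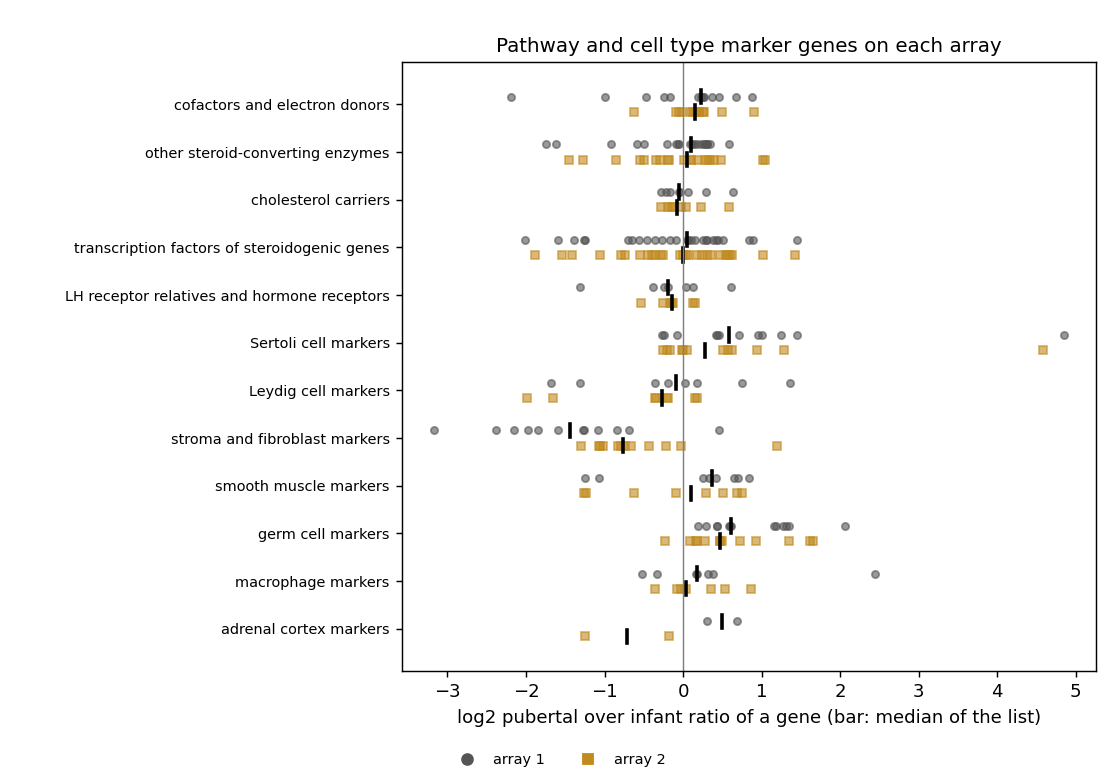
Log2 ratio of pubertal over infant of each measured gene of the pathway and marker lists (rows), by its brightest probe, on array 1 (grey circles) and array 2 (ochre squares); black bars are list medians. The stroma and fibroblast markers have medians of -1.44 and -0.77, the germ cell markers 0.61 and 0.48.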

How the data were processed

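RNA of 4 Sertoli cell cultures was measured on 2 arrays. The deposited scanner files (made with Feature Extraction 9.5.1.1 by Agilent, per the submitters' processing notes) hold mean spot intensity and median local background intensity per channel, not normalized, per the file headers. They also hold processed intensity values, background-subtracted and dye-normalized, a log10 ratio of Cy5 over Cy3, and flags for each spot as other values, per the file headers. A further table deposited by the authors lists 4848 probes with log2 ratios, whose normalization is not given in the sources used here.

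Intensities were corrected by normexp (offset 50) and normalized by loess within each array in limma 3.58.1 under R 4.3.3. Control spots had no weight, outlier-flagged spots were left out, saturated spots were kept and spots of 1 probe were averaged. Levels per culture were taken after loess and Aquantile. The labelled dyes set the sign of each ratio, pubertal over infant. A probe was kept if well above background in the pubertal cultures of both arrays or the infant cultures of both (25768 kept, 15232 left out). Each was fitted with lmFit and eBayes (residual degrees of freedom 1, prior 4.335), two-sided, threshold 0.05. The fit was tested on simulated data. An item is not reported here. For other genes the brightest kept probe stood for the gene. Members and lists were chosen with earlier results of these data known. Named genes were all member probes, the 2 genes of each pathway list with the largest mean in each direction among those of 1 sign on both arrays, and NR5A1, NR0B1, FDX1, POR and CYB5A. Both arrays lie on 1 slide and were read in 1 scan, so no slide batch could be tested. The number of arrays limits the precision. The p-values draw on the spread between these 2 pairs and, through limma's prior, on that of all measured probes. They hold no estimate of the spread among further animals.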

Additional observations from a re-analysis of the deposited data

How the results depend on the processing

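No member passed limma's threshold under any of the 9 other settings with a test, and CYP17A1 kept its direction in all of them. Member means that changed sign were STAR (0.18) and the minus-strand HSD17B1 probe A_23_P387374 (-0.015), both with median centring. Over the whole array 0 probes passed as processed here, against 1 with an offset of 0, 1 with median centring, 1 with signals well above background in all 4 channels and 9 with an intensity trend. Probes at least 2-fold higher and lower on both arrays numbered 78 and 77, against 326 and 266 from scanner-processed signals, 192 and 150 without the offset, and 29 were lower with median centring. In the Cy5 over Cy3 direction 54 and 122 became 171 and 290 from scanner-processed signals, 124 and 187 without the offset, and 1726 and 9 with median centring. Members at least 2-fold lower on both arrays were 1, against 2 with the scanner's signals (SRD5A1 added) and 0 with median centring. Members higher on both were 3, against 1 with 1 probe a gene. That setting reads HSD3B1 by A_24_P350397, saturated on array 1 and at -0.003 and 1.76, and HSD17B1 by A_23_P15542. The probes A_23_P97173 and A_23_P387374, both counted among the 3, thus drop out. The cause was not tested for the other changes. With 1 array left out, which allows no test, 569 to 956 probes were at least 2-fold higher and 525 to 731 lower, and of the members 6 to 7 were lower, 5 to 6 higher and 1 to 3 at least 2-fold lower. Leaving out the minus-strand HSD17B1 probes, chosen after seeing the data, left 2 members higher on both. The fit already used the ratio of 1 pubertal and 1 infant culture within each array, so there was no further pairing to analyse. Both arrays form 1 group. Signal over background limits LHCGR and CYP19A1, and saturation limits STAR, CYP11A1, HSD3B2 and the HSD3B1 probe A_24_P350397.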
